A study of Homo sapiens with 12 samples.

Results

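The genes described here are the transcription factor ATF4 and the genes of the amino acid response, read in 3 human lung cancer cell lines given a hairpin against the kinase MARK2, whose message fell past the threshold in H1693 and H1993 and not in H1650. Of 39 listed names, 38 were measured, out of 18132 genes on the arrays, and GPT2 was not analysed here. All 38 passed the filter on low signal, a log2 signal of at least 5 on at least 2 arrays, which left 16205 genes to test. Where a gene had several probe sets, the one brightest on average was used. NCI-H1650, NCI-H1693 and NCI-H1993 are established lung cancer lines that the submitters chose for high MARK2. Every culture was transduced with a lentivirus, which carried either a short hairpin RNA against MARK2 (knockdown) or the empty vector pLKO (control). The 6 groups have 2 arrays each, called biological replicates by the submitters, so 12 arrays in all. The number of hairpins, the time after transduction and any selection of clones are not given in the sources used here.

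ATF4 is the effector of the integrated stress response. Kinases that sense amino acid shortage, unfolded protein in the endoplasmic reticulum, double-stranded RNA or haem shortage phosphorylate the initiation factor eIF2, which lowers protein synthesis as a whole and raises translation of the ATF4 message. ATF4 pairs with C/EBP proteins on composite DNA elements and switches on genes that import amino acids, make serine, asparagine and proline, charge tRNAs, and limit growth or promote death when the stress lasts. Lung adenocarcinomas are known to use this programme, and its serine branch, to sustain growth. Arrays read RNA, so neither ATF4 protein nor eIF2 phosphorylation was measured.

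The composite element that binds ATF4 with C/EBP proteins carries the letters TGATGNAA. These letters were searched on both strands in RefSeq promoter windows of GRCh38.p14, which run from 250 bases before to 50 bases after an annotated start; matches may overlap other elements. Windows were found for 32 of the 38 genes, 48 windows in all, and 11 of these (22.9%) held the letters, against 1270 of 35116 windows of all genes (3.62%). A match is a description of the sequence and not a measured binding site. The genes were listed for their place in the ATF4 response, so a higher share of its element can follow from that choice alone. The list was also chosen with earlier results of these data known, and the shares were not tested. The 11 genes are shown because their promoters carry the element and all 11 rose in H1693. Each sequence is read on the strand that spells the element, with its 8 letters in capitals and up to 11 bases on either side.
CHAC1 (chr15:40953251-40953280, reverse strand): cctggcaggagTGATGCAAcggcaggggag
AARS1 (chr16:70289675-70289704, forward strand): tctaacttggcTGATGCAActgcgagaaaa
SLC1A5 (chr19:46784893-46784922, reverse strand): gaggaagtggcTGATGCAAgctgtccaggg
ASNS (chr7:97872458-97872487, reverse strand): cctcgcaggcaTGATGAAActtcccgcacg
CEBPG (chr19:33374060-33374089, forward strand): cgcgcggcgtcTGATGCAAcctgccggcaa
GARS1 (chr7:30594834-30594863, reverse strand): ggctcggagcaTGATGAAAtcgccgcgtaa
SLC1A4 (chr2:64989381-64989410, reverse strand): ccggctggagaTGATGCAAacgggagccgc
MARS1 (chr12:57488053-57488082, reverse strand): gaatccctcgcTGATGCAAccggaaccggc
CARS1 (chr11:3057407-3057436, forward strand): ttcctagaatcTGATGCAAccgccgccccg
SLC7A1 (chr13:29595663-29595692, reverse strand): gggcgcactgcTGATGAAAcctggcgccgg
SLC3A2 (chr11:62881725-62881748, reverse strand): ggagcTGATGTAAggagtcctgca
In 7 of the 11 the element reads TGATGCAA, in 3 TGATGAAA and in SLC3A2 TGATGTAA. Along the strand of the gene, its first base lay 209 bases before the start in CHAC1, 187 in AARS1, 97 in SLC1A5, 68 in ASNS, 42 in CEBPG, 33 in GARS1, 7 in SLC1A4, 4 in MARS1 and 2 in CARS1. In SLC7A1 and SLC3A2 it lay 7 and 37 bases after the start. The 21 genes with a window that lacked the letters included 16 that rose in H1693. Their median change of 0.61 there was close to the 0.60 of the 11 genes with the element. Elements outside the windows or in other spellings were not searched. This split therefore cannot show whether carrying an element made a difference.

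**Figure D1:**
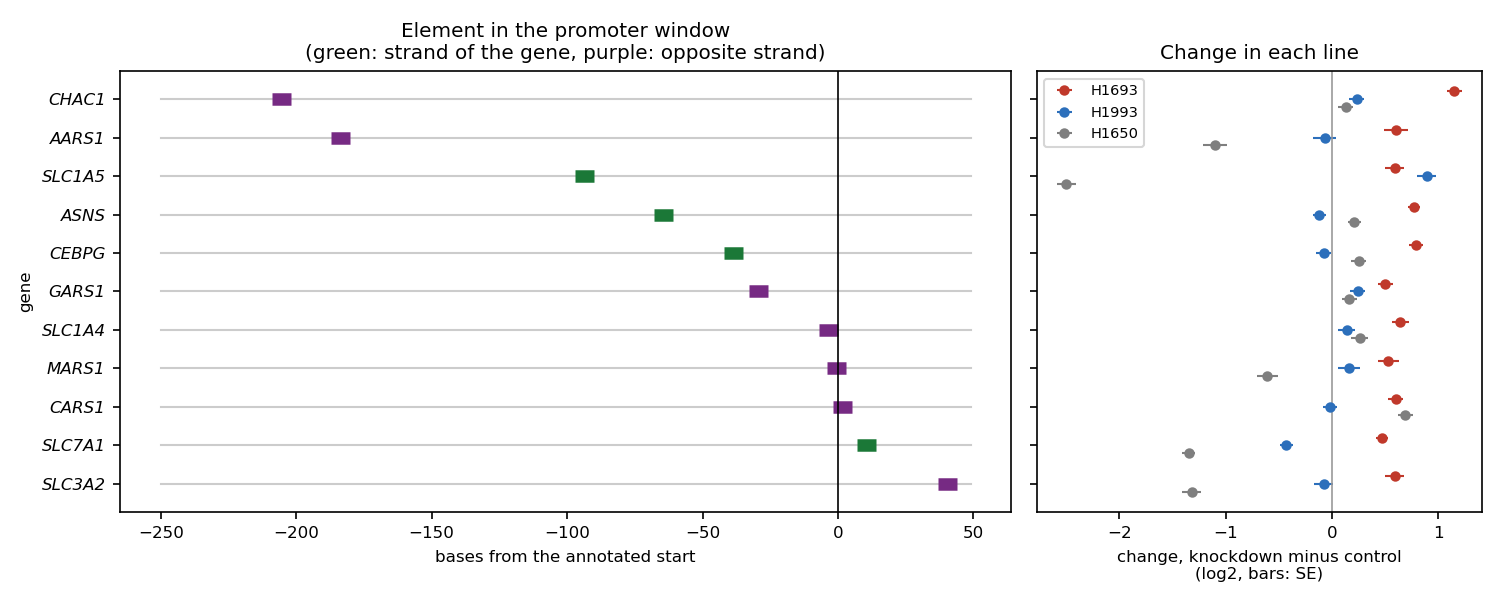
Left, position of the element TGATGNAA (block) in the promoter window of 11 genes, in bases from the annotated start, with the window as a grey line and green or purple for the strand of the gene or the opposite strand. Right, change in log2 signal (knockdown minus control, bars SE, 2 against 2 arrays) in each line: the H1693 points all lie above 0, from 0.47 in SLC7A1 to 1.15 in CHAC1, and the H1650 points run from -2.5 to 0.69.

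MARK2 was at 7.76 and 7.97 (log2 signal) on the H1693 control arrays and 6.62 and 6.57 after knockdown, at 9.17 and 9.06 against 6.76 and 6.77 in H1993, and at 6.07 and 5.80 against 5.92 and 5.37 in H1650. It fell in H1693 (-1.27) and H1993 (-2.35; limma adjusted p = 0.000258 and 6.47e-06), and the -0.29 of H1650 did not pass (adjusted p = 0.156), with overlapping arrays, and a dimmer second probe set at 0.03. For H1650, knockdown therefore names the label of the arrays and not a measured loss of MARK2. For RNA integrity, the gap between the 3' and 5' probe sets of GAPDH lay between -0.12 and 0.02 (log2) on the H1693 and H1993 arrays. In H1650 this gap was 2.68 ± 0.56 (SD, n = 2) with the empty vector and 6.82 ± 0.07 with the hairpin. All 10 epithelial markers passed the floor on every array, with summed signals from 16.19 to 16.99 (log2). EPCAM, CDH1, KRT18 and KRT19 were at 12.05 or above throughout, KRT8 changed by -4.47 with knockdown in H1650, and KRT7 was at 6.70 in H1693 controls against 14.16 and 14.26 in H1993 and H1650. The lung lineage genes NKX2-1, NAPSA and SFTPB lay between 6.55 and 8.13 on all arrays. Of 10 markers of leukocytes, endothelium and fibroblasts, 7 to 8 passed the floor on an array, and PTPRC and DCN were below it on every array. The summed signal of these 10 went from between 11.76 and 11.80 (log2) to between 12.20 and 12.21 after knockdown in H1693, with COL1A1 and COL3A1 up by 0.67 and 0.62 there, from between 11.83 and 11.92 to between 11.93 and 11.96 in H1993, and from between 11.77 and 11.89 to 12.16 in H1650. COL1A1 also rose in H1993, by 0.59 (limma adjusted p = 0.00834). CD68, at 11.50 in H1993 controls, fell by 0.30 in H1693 (limma adjusted p = 0.0322). The part of these markers in the changes of the amino acid response genes was not tested. In bulk RNA, fewer cells of a kind and less RNA per cell cannot be told apart.

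After MARK2 knockdown, the amino acid response genes rose together in H1693. The list was chosen with earlier results of these data known. The shares of all genes beside its counts are therefore a description and not an independent test. Of the 38, 31 rose and 1 fell (limma, Benjamini-Hochberg adjusted p under 0.05 over all genes), where 17.1% of all genes rose and 15.9% fell. Their median change was 0.60 on the log2 scale, against -0.02 for all genes tested. At least a 2-fold rise was seen for 8 of them, and the share of all genes past that size was not counted. Both knockdown arrays lay above both control arrays for 34 of the 38 and below them for 3, against 32.9% and 36.1% of all genes. By role, those that rose were 8 of 8 amino acid transporters, 7 of 8 tRNA genes, 4 of 4 stress effectors, 3 of 5 transcription factors, 2 of 3 serine synthesis enzymes, 2 of 3 mitochondrial one-carbon enzymes, 3 of 5 other amino acid enzymes, and both STC2 and VLDLR. In H1993 and H1650 the same list had a median change of -0.06 and -0.08. There the knockdown arrays lay above both controls for 10 and 13 of the 38 (34.7% and 51.1% of all genes) and below them for 15 and 18 (29.0% and 22.4%).

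Among the transcription factors, ATF4 message itself moved little. Its signal was 13.65 and 13.65 on the H1693 control arrays and 13.86 and 13.91 on the knockdown arrays, 13.51 and 13.56 against 13.40 and 13.44 in H1993, and 13.30 and 13.36 against 12.83 and 13.08 in H1650. The knockdown arrays were thus above the controls in H1693 and below them in the other lines, with no overlap in any line. The change of 0.24 (SE 0.08) in H1693 missed the threshold (adjusted p = 0.0524) and passed under 5 of 13 other settings, with values from 0.21 to 0.26. In H1993 it was -0.11 (adjusted p = 0.349), and in H1650 ATF4 fell by 0.38 (adjusted p = 0.00332). DDIT3 (CHOP), a C/EBP-family factor that drives the later, pro-apoptotic part of the response, was at 10.48 and 10.47 in H1693 controls and 11.22 and 11.40 after knockdown, at 9.40 and 9.48 against 9.26 and 9.12 in H1993, and at 7.89 and 8.34 against 7.08 and 7.12 in H1650. It rose by 0.84 (SE 0.13, 1.79-fold, adjusted p = 0.000939) in H1693 and fell in H1650 (-1.01), and the -0.25 of H1993 did not pass (adjusted p = 0.183). CEBPG and CEBPB, partners of ATF4 on the composite element, rose by 0.79 and 0.61 in H1693 (adjusted p = 3.28e-05 and 0.00273). NUPR1, a stress-induced chromatin protein, was dim, with values between 6.03 and 6.37 on the H1693 arrays, and its groups overlapped there.

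The 4 stress effectors had the highest median change of any role in H1693, 1.20. TRIB3, a pseudokinase that restrains ATF4 and AKT, was at 11.28 and 11.23 on the H1693 control arrays and 12.82 and 12.85 after knockdown, at 10.26 and 10.34 against 9.96 and 10.04 in H1993, and at 11.80 and 11.66 against 11 and 11.13 in H1650. Its knockdown arrays lay above the controls in H1693 and below them in both other lines: the rise was 1.58 (SE 0.08, 3.0-fold, adjusted p = 1.7e-06), and the falls were -0.30 in H1993 and -0.66 in H1650. DDIT4 (REDD1), an inhibitor of mTORC1, was at 9.96 and 9.89 against 11.15 and 11.18 in H1693, at 13.18 and 13.26 against 12.65 and 12.61 in H1993, and at 11.64 and 11.68 against 10.49 and 10.63 in H1650. It rose by 1.25 (SE 0.07, adjusted p = 3.38e-06) in H1693, from the lowest control level of the 3 lines, and fell in H1993 (-0.59) and H1650 (-1.10).

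CHAC1, which degrades glutathione, was at 9.65 and 9.70 against 10.86 and 10.79 in H1693, at 8.91 and 8.85 against 9.12 and 9.09 in H1993, and at 9.18 and 9.15 against 9.38 and 9.21 in H1650. All knockdown arrays were above the controls of their line, and the rise was 1.15 (2.22-fold, adjusted p = 4.8e-06) in H1693 and 0.23 (adjusted p = 0.0358) in H1993, while the 0.13 of H1650 did not pass (adjusted p = 0.169). The H1993 call was lost when any of the 4 H1993 arrays was left out, with values from 0.20 to 0.25, after quantile normalisation (0.17), with median centring (0.15) and with the mean of its probe sets (0.13). SESN2, a leucine sensor that also limits mTORC1, was at 10.23 and 10.24 against 11.28 and 11.21 in H1693, at 8.02 and 8.23 against 9.00 and 8.96 in H1993, and at 10.04 and 10.07 against 10.22 and 10.35 in H1650. It was the 1 gene of the list that rose in all 3 lines, by 1.01, 0.86 and 0.23 (adjusted p = 2.01e-05, 4.34e-05 and 0.0355), and H1693 did not differ from H1993 beyond the threshold (difference 0.15, SE 0.12, adjusted p = 0.423). The H1650 rise of SESN2 did not pass after quantile normalisation (0.14), with median centring (0.19), without control replicate 1 (0.22), without control replicate 2 (0.25) or without knockdown replicate 2 (0.17).

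**Figure D2:**
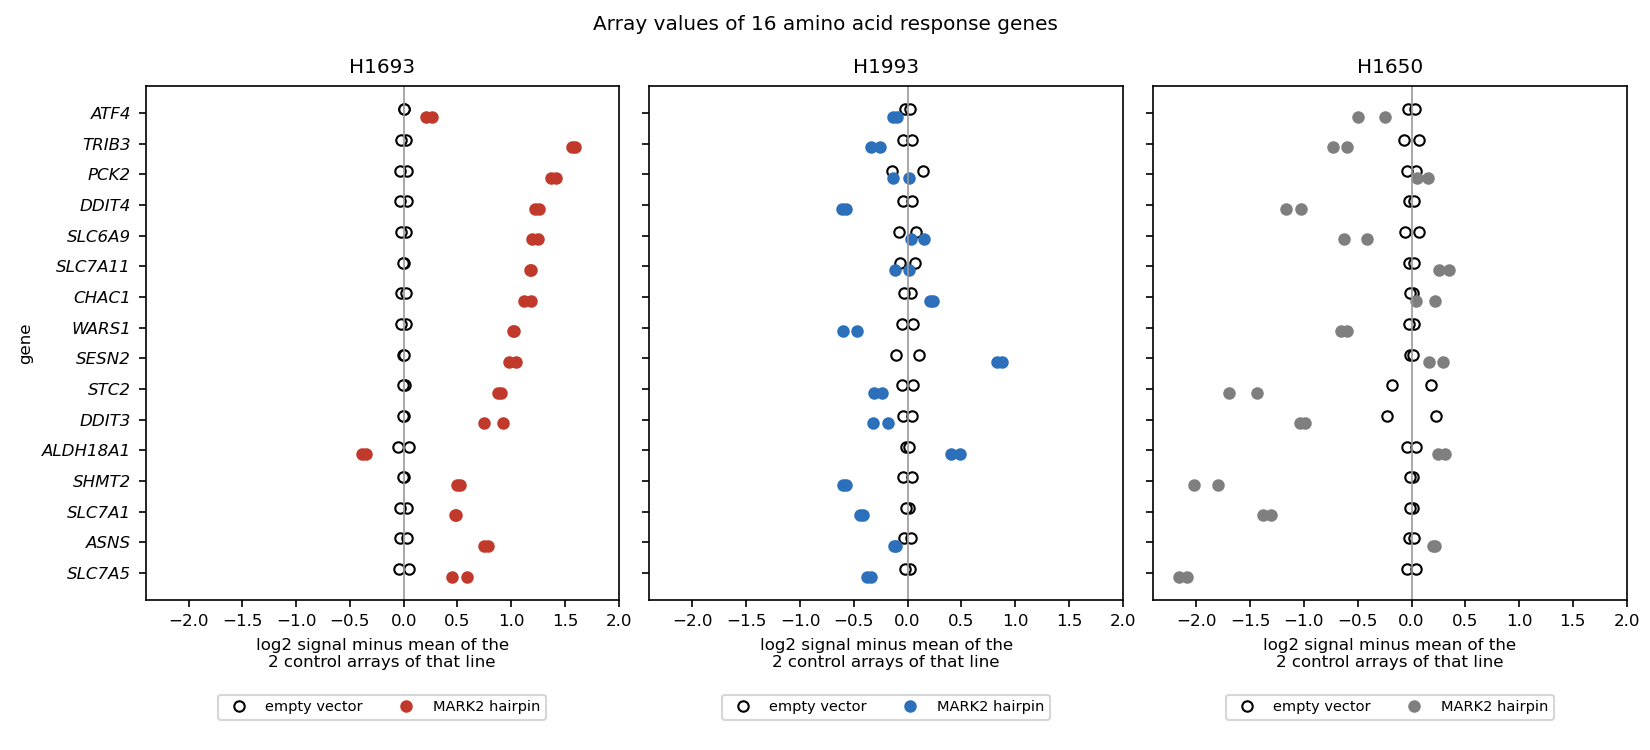
Log2 signal of 16 genes on each array, minus the mean of the 2 control arrays of the same line; open circles are empty vector arrays and filled circles knockdown arrays, 2 of each per line. In H1693 the filled circles lie to the right of the open ones for 15 genes, with TRIB3 farthest at 1.58 on average, and ALDH18A1 lies to the left at -0.37.

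Of the 5 enzymes grouped here under amino acid synthesis, PCK2, the mitochondrial PEP carboxykinase, rose most. Its signal was 9.93 and 9.86 in H1693 controls and 11.26 and 11.31 after knockdown, 8.43 and 8.72 against 8.44 and 8.59 in H1993, and 8.86 and 8.77 against 8.97 and 8.87 in H1650. That is a rise of 1.40 (SE 0.10, 2.64-fold, adjusted p = 1.01e-05) in H1693, while the arrays overlapped in H1993. ASNS, asparagine synthetase and a classical ATF4 target, was at 12.88 and 12.94 against 13.66 and 13.69 in H1693, at 12.57 and 12.63 against 12.47 and 12.49 in H1993, and at 11.95 and 12 against 12.17 and 12.19 in H1650. It rose by 0.77 (SE 0.06, adjusted p = 1.69e-05) in H1693 and by 0.21 (adjusted p = 0.0151) in H1650, and the latter did not pass with the mean of all probe sets (0.10), after quantile normalisation (0.12), in a fit of H1650 alone (adjusted p = 0.106), without H1650 control replicate 1 (0.18) or knockdown replicate 2 (0.20). PYCR1, the last step of proline synthesis, rose by 0.82 in H1693 (adjusted p = 4.48e-05). The step before it went the other way. ALDH18A1, which makes the proline precursor, was at 10.93 and 10.83 against 10.49 and 10.53 in H1693, at 11.99 and 12.02 against 12.49 and 12.41 in H1993, and at 11.29 and 11.38 against 11.65 and 11.58 in H1650. It was the 1 gene of the list that fell in H1693, by 0.37 (adjusted p = 0.00263), and it rose by 0.45 in H1993. With the mean of its probe sets the H1693 value was -0.26 and did not pass (adjusted p = 0.0536). Its 2 probe sets were at -0.37 and -0.15 in H1693, and at 0.28 and -2.55 in H1650, so its H1650 direction rests on the probe set chosen. CTH, of cysteine synthesis, was at -0.17 in H1693 (limma adjusted p = 0.397) and fell by 1.03 in H1993 (limma adjusted p = 0.00031). Its 1 probe set was dim in H1993, with a mean of 6.59 in controls and 5.56 after knockdown, near the filter at 5.

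In the serine and one-carbon branch, PHGDH, the entry enzyme of serine synthesis, rose by 0.82 in H1693 and by 0.72 in H1993 (adjusted p = 0.000426 and 0.000879). PSPH, the last step, rose by 0.46 (adjusted p = 0.0102) in H1693, and PSAT1, the middle step, was at 0.41 there and did not pass (adjusted p = 0.0698). SHMT2, which splits serine in mitochondria, was at 12.22 and 12.21 against 12.71 and 12.74 in H1693, at 11.73 and 11.82 against 11.17 and 11.20 in H1993, and at 10.52 and 10.49 against 8.48 and 8.71 in H1650. No groups overlapped: it rose by 0.51 (SE 0.08, adjusted p = 0.00102) in H1693 and fell in H1993 (-0.59) and H1650 (-1.91; adjusted p = 0.000401 and 2.36e-07). MTHFD2, the next enzyme of that pathway, rose by 0.31 in H1693 (adjusted p = 0.0112). ALDH1L2, which ends the pathway, was dim (5.13 to 5.56 on the H1693 arrays) and its -0.36 did not pass (adjusted p = 0.0929). Leaving out an array ended the H1693 call of PSPH (0.41 without control replicate 2, 0.45 without knockdown replicate 1) and of MTHFD2 (0.28 without control replicate 1, 0.24 without knockdown replicate 2).

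All 8 amino acid transporters rose in H1693, with a median of 0.59, while 1 rose and 2 fell in H1993 (18.9% and 14.5% of all genes) and 2 rose and 6 fell in H1650 (36.7% and 16.7% of all genes, beside the GAPDH gap). With the mean of all probe sets, the H1650 calls of SLC6A9 (-0.52, to -0.02, adjusted p = 0.809) and SLC1A4 (0.26, to 0.07, adjusted p = 0.4) were lost. SLC6A9, a glycine transporter, was at 9.87 and 9.82 against 11.04 and 11.09 in H1693, at 9.96 and 9.80 against 9.91 and 10.03 in H1993, and at 10.38 and 10.51 against 9.82 and 10.03 in H1650. It rose by 1.22 (SE 0.09, 2.33-fold, adjusted p = 1.45e-05) in H1693, and its H1993 groups overlapped. Its 7 probe sets ran from 0.16 to 1.63 in H1693. SLC7A11 (xCT), which brings in cystine in exchange for glutamate, was at 10.28 and 10.27 against 11.45 and 11.46 in H1693, at 9.27 and 9.13 against 9.21 and 9.08 in H1993, and at 10.11 and 10.15 against 10.48 and 10.39 in H1650. The rise was 1.18 (SE 0.07, 2.27-fold, adjusted p = 5.36e-06) in H1693 and 0.31 (adjusted p = 0.00632) in H1650, with overlap in H1993. Its 3 probe sets ran from 0.21 to 1.18 in H1693.

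SLC7A5 (LAT1) and SLC3A2 form the exchanger that brings in leucine and other large amino acids. SLC7A5 was at 11.97 and 12.06 against 12.60 and 12.46 in H1693, at 11.03 and 10.98 against 10.63 and 10.66 in H1993, and at 11.82 and 11.91 against 9.78 and 9.70 in H1650. It rose by 0.52 (SE 0.07, adjusted p = 0.000554) in H1693 and fell in H1993 (-0.36) and H1650 (-2.12). SLC3A2 rose by 0.59 in H1693 and was at -0.08 in H1993 (adjusted p = 0.00109 and 0.592). SLC7A1 (CAT1), the importer of arginine and lysine, was at 10.77 and 10.70 against 11.21 and 11.22 in H1693, at 9.99 and 9.96 against 9.53 and 9.56 in H1993, and at 10.99 and 10.96 against 9.59 and 9.67 in H1650. It followed the same order, up by 0.47 (SE 0.06, limma adjusted p = 0.000301) in H1693 and at -0.43 and -1.35 in H1993 and H1650, where it fell. Its 4 probe sets ran from -1.35 to -0.08 in H1650. SLC1A4, a carrier of alanine and serine, rose by 0.64, and SLC1A5 (ASCT2), the main glutamine carrier, by 0.59 in H1693 and by 0.89 in H1993. SLC38A2 (SNAT2) had the smallest rise that passed, 0.17 (adjusted p = 0.0439), and it did not pass without any of the 4 H1693 arrays in turn, with values from 0.16 to 0.19.

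The tRNA genes on the list are cytosolic synthetases, which charge tRNAs with their amino acid, and the tRNA exporter XPOT. WARS1, the tryptophan enzyme, was at 12.11 and 12.06 against 13.10 and 13.11 in H1693, at 11.57 and 11.67 against 11.02 and 11.15 in H1993, and at 11.79 and 11.75 against 11.11 and 11.17 in H1650. It rose by 1.02 (SE 0.07, 2.03-fold, adjusted p = 8.83e-06) in H1693 and fell in the others (-0.53 and -0.63), although its 4 probe sets ran from 0.05 to 1.31 in H1693. The enzymes for alanine (AARS1), cysteine (CARS1), methionine (MARS1), glycine (GARS1) and serine (SARS1) rose by 0.60, 0.60, 0.53, 0.50 and 0.48 in H1693. EPRS1, which charges glutamate and proline, rose by 0.28, and did not pass without H1693 control replicate 2 (0.24) or knockdown replicate 2 (0.22). XPOT was at 0.10 in H1693 (adjusted p = 0.713) and fell by 0.51 in H1993 (adjusted p = 0.0356), a call lost without H1993 control replicate 1 (-0.44), control replicate 2 (-0.57) or knockdown replicate 2 (-0.25).

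STC2, a secreted glycoprotein of the stress response, was at 10.91 and 10.89 against 11.80 and 11.78 in H1693, at 8.48 and 8.58 against 8.29 and 8.22 in H1993, and at 10.20 and 9.83 against 8.32 and 8.58 in H1650. It rose by 0.89 (SE 0.12, 1.86-fold, limma adjusted p = 0.000407) in H1693, fell in H1650 (-1.56), and was at -0.28 in H1993 (adjusted p = 0.113). Its 3 probe sets ran from -1.56 to -0.15 in H1650. VLDLR, a lipoprotein receptor induced by ATF4, rose by 0.74 in H1693 and 0.56 in H1650.

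Probe sets of the same gene gave the same direction in H1693. Of the 29 genes with several probe sets, 27 had all of them above 0, ALDH18A1 had all below 0, and 1, ALDH1L2, had both signs. In H1993, 5 had all above 0, 13 all below and 11 both signs, and in H1650 5, 12 and 12. The median range between the probe sets of a gene was 0.31 in H1693, 0.14 in H1993 and 0.60 in H1650.

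**Figure D3:**
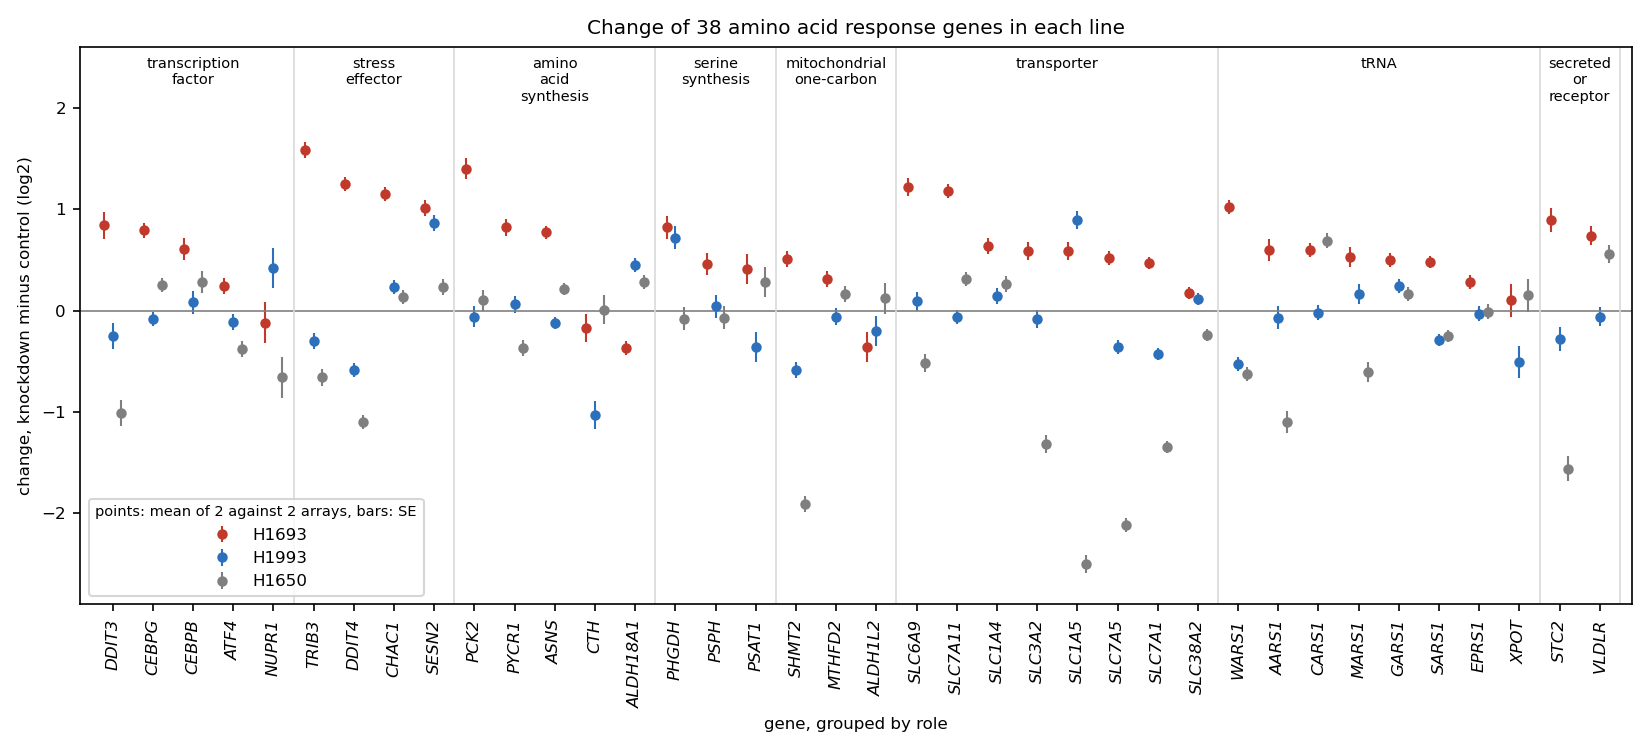
Change in log2 signal (knockdown minus control, y axis) of 38 genes in 3 lines, ordered by role along the x axis; points are differences of the means of 2 and 2 arrays and bars are SE from limma. The H1693 points lie above 0 for 34 genes, from 0.10 in XPOT to 1.58 in TRIB3, against 14 genes in H1993 and 17 in H1650.

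In H1993 the list did not move one way. There 6 of the 38 rose and 9 fell, where 18.9% of all genes rose and 14.5% fell, so the share of rises was near that of all genes. With median centring, 43.5% of all calls in H1993 were rises, against 56.6%. The risers were SLC1A5, SESN2, PHGDH, ALDH18A1, GARS1 and CHAC1, at 0.89, 0.86, 0.72, 0.45, 0.24 and 0.23. CTH, SHMT2, DDIT4, WARS1, XPOT, SLC7A1, SLC7A5, TRIB3 and SARS1 fell, with changes of -1.03, -0.59, -0.59, -0.53, -0.51, -0.43, -0.36, -0.30 and -0.29. Of the 31 genes that rose in H1693, 5 also rose in H1993 and 7 fell there. Leaving out an array ended the calls of TRIB3 (-0.26 without control replicate 2 and also without knockdown replicate 1) and GARS1 (0.21 without control replicate 1, 0.18 without knockdown replicate 1), and median centring ended that of GARS1 (0.17, adjusted p = 0.0547).

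The test of the difference between these lines asks whether the signed change with knockdown was higher or lower in H1693 than in H1993. It was higher, that is more positive, for 25 of the 38 and lower for 1. Of all genes, 9.48% and 12.6% were called in these directions. The median difference was 0.71 against -0.05 for all genes. Of the 31 genes that rose in H1693, 23 passed this test. CTH and PSAT1 also passed, without a rise past the threshold in H1693 (-0.17 and 0.41). The larger change of CTH was its -1.03 in H1993. These counts are a description, as the list was chosen with earlier results of these data known. The largest differences were those of TRIB3 (1.88, SE 0.11), DDIT4 (1.84, SE 0.10), WARS1 (1.55, SE 0.10), PCK2 (1.45, SE 0.14) and SLC7A11 (1.24, SE 0.11), each with an adjusted p of 0.000124 or less. ALDH18A1 was the 1 gene with a lower signed change in H1693, with a difference of -0.81 (limma adjusted p = 0.000423). The difference of ATF4 itself, 0.35 (SE 0.12), did not pass (adjusted p = 0.0589). PHGDH, SESN2, SLC38A2 and SLC1A5 rose in H1693 without a difference past the threshold (0.10, 0.15, 0.06 and -0.30, with limma adjusted p = 0.718, 0.423, 0.677 and 0.153). The same held for PSPH, MARS1, EPRS1 and GARS1 (0.42, 0.37, 0.31 and 0.26, with limma adjusted p = 0.0906, 0.0888, 0.0515 and 0.093). The calls of PSAT1, MTHFD2 and CEBPB (0.76, 0.37 and 0.52) were lost when single arrays were left out: without H1993 knockdown replicate 2 they were 0.60, 0.30 and 0.38, and without H1693 knockdown replicate 2 they were 0.65, 0.30 and 0.37. Without H1693 control replicate 1, H1693 control replicate 2 or H1993 control replicate 1 they also did not pass, with PSAT1 at 0.77, 0.75 and 0.65, MTHFD2 at 0.33, 0.40 and 0.35, and CEBPB at 0.53, 0.52 and 0.47. Without H1993 control replicate 2 MTHFD2 (0.39) and CEBPB (0.58) were lost.

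In H1650, where the GAPDH gap moved with the knockdown from 2.68 to 6.82, 8 of the 38 rose and 18 fell, against 36.7% and 16.7% of all genes. CARS1 and VLDLR rose most, by 0.69 and 0.56. The falls were led by SLC1A5, SLC7A5, SHMT2, STC2, SLC7A1 and SLC3A2, at -2.5, -2.12, -1.91, -1.56, -1.35 and -1.32, and 16 of the genes that rose in H1693 fell here. Probe sets disagreed in part: those of SLC3A2 ran from -4.30 to -1.23, those of SLC7A5 from -2.12 to -0.31 and those of PSAT1 from -1.88 to 0.33. For STC2 they ran from -1.56 to -0.15 and for SLC7A1 from -1.35 to -0.08, so the size of these falls rests on the probe set chosen. The signed change in H1693 was higher (more positive) than in H1650 for 28 genes and lower for 1, where 16.1% and 30.3% of all genes were called. Such a gene can have its larger change in H1650, as SLC1A5 had (0.59 in H1693 against -2.5). The median difference was 0.75 against -0.17 for all genes. The calls of PSPH, SLC1A4, GARS1 and EPRS1 in this difference (0.53, 0.38, 0.34 and 0.29) were lost without H1693 control replicate 2 (0.49, 0.33, 0.32 and 0.24) and without H1650 control replicate 2 (0.48, 0.31, 0.30 and 0.27). With the mean of all probe sets the difference of CEBPG, 0.54, became 0.15 and did not pass (adjusted p = 0.206). Without H1693 knockdown replicate 2, SLC1A4 (0.33), GARS1 (0.32) and EPRS1 (0.23) were lost. PSPH was also lost without H1693 knockdown replicate 1 (0.52) or H1650 knockdown replicate 2 (0.47), and EPRS1 without H1650 control replicate 1 (0.31) or knockdown replicate 1 (0.26). The part of RNA integrity in the H1650 values was not tested. Fitted without the 4 H1650 arrays, H1693 had 33 genes of the list higher and 1 lower. Of all 16205 genes, 3028 were higher and 2827 lower in H1693 in that fit, against 2763 and 2583 with all arrays. The median of all genes in H1650, 0.15, became 0.04 after quantile normalisation of the tested genes, and the share of rises among all calls there went from 68.8% to 57.7%. With the mean of all probe sets that share was 58.3%. Leaving out H1650 control replicate 1 left 5 genes higher, with SLC1A4 at 0.19, against 0.26 with all arrays. After quantile normalisation SLC1A4 was at 0.16 (adjusted p = 0.0998), and with the mean of all probe sets the fall of PYCR1 (-0.37) became -0.13 (adjusted p = 0.0752); neither passed. SLC1A4 (0.21) was also lost without knockdown replicate 1, CEBPG (0.24, against 0.25) without control replicate 2, and NUPR1, which fell by 0.66, without control replicate 2 (-0.40) or knockdown replicate 1 (-0.41).

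The lines also differed before knockdown. In the control arrays 23 of the 38 genes were higher in H1693 than in H1993 and 8 were lower (32.9% and 30.1% of all genes), with a median difference of 0.45 against -0.001 for all genes. PHGDH differed most, with 11.14 and 11.07 in H1693 against 6.80 and 7.04 in H1993, a difference of 4.19 (SE 0.11, adjusted p = 5.13e-10). In H1650 controls PHGDH was at 12.12 and 12.19, so H1993 was the low line. STC2, SESN2, CTH, MARS1, PCK2 and SLC38A2 were higher in H1693 by 2.37, 2.11, 2.08, 1.33, 1.32 and 1.23. DDIT4 and XPOT were lower in H1693, with differences of -3.30 and -2.49. ATF4 did not differ past the threshold (0.12, adjusted p = 0.259). Of the 31 genes that rose in H1693, 22 were already higher there in the controls and 6 were lower. These comparisons share the H1693 and H1993 control arrays with the knockdown comparisons, and line and culture cannot be told apart. The call of CARS1 (-0.23) was lost without H1693 control replicate 1 (-0.24), H1693 control replicate 2 (-0.22) or H1993 control replicate 2 (-0.14).

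Genes of the pathway outside the list were set beside it. These further lists were also chosen with earlier results of these data known. Of 16 further ATF4 targets tested, 10 rose and none fell in H1693 (17.1% and 15.9% of all genes), with a median of 0.43. At an unadjusted limma p under 0.05, 1 was lower there. In H1993 1 rose and 3 fell (18.9% and 14.5% of all genes). GDF15, a secreted stress hormone, rose by 1.95 (SE 0.11, adjusted p = 3.28e-06) and was at -0.01 in H1993 (adjusted p = 0.965). JDP2, a bZIP repressor, NIBAN1, a stress-induced protein, and VEGFA, the vascular growth factor, rose by 1.03, 0.81 and 0.81 in H1693. NIBAN1 also rose in H1993, by 0.46 (limma adjusted p = 0.00362). In H1650, beside the GAPDH gap, 2 rose and 6 fell (36.7% and 16.7% of all genes). CBS was not analysed here, and SLC7A3 was below the floor.

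Of 13 further cytosolic synthetases, 2 rose and 1 fell in H1693 (median -0.05), where 17.1% and 15.9% of all genes did: NARS1 and YARS1 rose by 0.26 and 0.21 and FARSB fell by 0.41. In H1993 3 fell and none rose by limma (0 also at an unadjusted p under 0.05), beside 14.5% and 18.9% of all genes, and in H1650, with 36.7% and 16.7% of all genes and the GAPDH gap beside them, 4 rose and 4 fell. Of 16 mitochondrial synthetases, none rose and 6 fell in H1693 by limma (0 higher also at an unadjusted p under 0.05), led by EARS2 (-1.29), IARS2 (-0.71), RARS2 (-0.50) and MARS2 (-0.43). EARS2 and IARS2 also fell in H1993 (-1.39 and -0.84), where 5 of the 16 fell and none rose by limma (0 also at an unadjusted p under 0.05), and in H1650 7 rose and 5 fell.

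Of 16 genes for the eIF2 kinases, eIF2, its exchange factor and its phosphatase subunits, 4 rose and 5 fell in H1693, 5 rose and 3 fell in H1993, and 5 rose and 1 fell in H1650. The shares of all genes that rose and fell were 17.1% and 15.9% in H1693, 18.9% and 14.5% in H1993, and 36.7% and 16.7% in H1650, where the GAPDH gap moved too. PPP1R15A (GADD34), the stress-induced phosphatase subunit that reverses eIF2 phosphorylation, rose by 0.57 in H1693 and 0.51 in H1993 (difference between the lines, adjusted p = 0.821). EIF2B3 and EIF2S1, subunits of eIF2B and eIF2, fell in H1693 (-0.54 and -0.53) and in H1993 (-0.32 and -0.36). Their differences between these lines did not pass (limma adjusted p = 0.121 and 0.259). The RNA-sensing kinase EIF2AK2 (PKR) fell by 0.47 in H1693. Of 18 genes of endoplasmic reticulum folding and the unfolded protein response, 8 rose and 2 fell in H1693, with a median of 0.18. In H1993 3 rose and 3 fell (median 0.01), and in H1650 8 rose and 5 fell (median 0.15). The same shares of all genes apply, and the medians of all genes were -0.02, 0.02 and 0.15. HERPUD1 and SEL1L, of the degradation machinery there, rose by 0.82 and 0.54 in H1693. DNAJB9, a cochaperone, rose in all 3 lines, by 0.85 in H1693, 0.74 in H1993 and 1.06 in H1650. SDF2L1 fell in all 3 lines, with changes of -0.84, -0.40 and -1.0 in the same order.

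**Figure D4:**
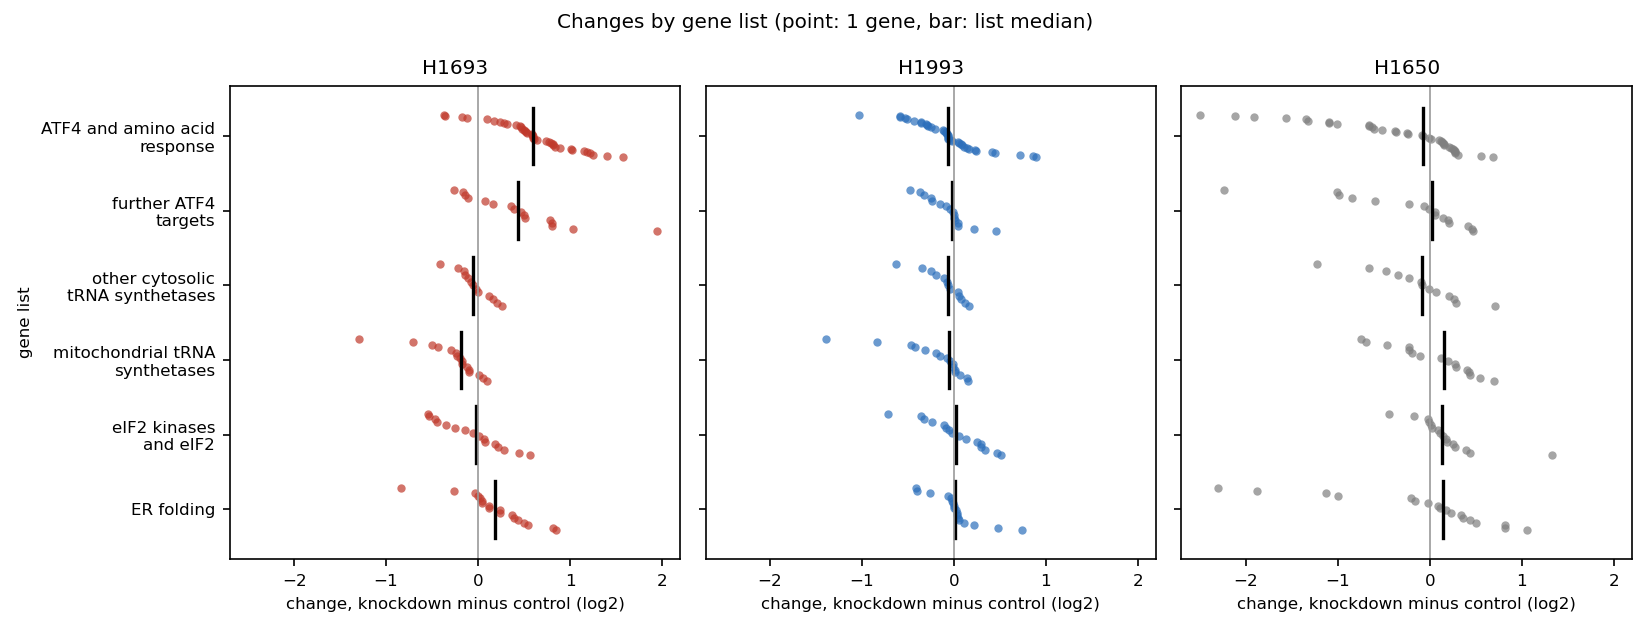
Change in log2 signal (knockdown minus control, x axis) of each gene of 6 lists in 3 lines; a point is 1 gene and a black bar the list median. In H1693 the medians of the amino acid response list and of the further ATF4 targets are 0.60 and 0.43, and those of the other lists lie between -0.18 and 0.18.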

How the data were processed

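Total RNA of 12 cultures was labelled as biotinylated cRNA and hybridised to Affymetrix PrimeView arrays. Per the submitters' processing notes, the authors used Affymetrix Expression Console and RMA, and the deposited signal of each probe set is on a log2 scale. No version is named in the sources used. RMA brings the arrays to a common distribution, and dim signals understate changes. The table holds 49395 probe sets, 44988 of which were used: those with 1 gene symbol, updated through gene IDs to RefSeq GRCh38.p14. Each gene took the probe set with the highest mean. Array medians ran from 7.13 to 7.32, and the number of arrays limits the precision.

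The 6 group means of 16205 genes were estimated in limma 3.58.1 under R 4.3.3 (eBayes, 6 residual degrees of freedom, prior 3.52, two-sided, Benjamini-Hochberg over all genes, threshold 0.05). P-values set a difference of group means against the spread between replicate cultures. That spread is pooled over all 6 groups, those of H1650 included. Replicate arrays were no duplicates (lowest r 0.995, at most 0.0992% identical values). The fit was tested on simulated data. Array values are given for ATF4, the 10 largest rises and up to 4 falls past the threshold in H1693, and 4 more genes with the largest difference between H1693 and H1993. The members and gene lists were chosen with earlier results of these data known. Alternatives covered probe sets, filters, scaling, variance trend, blocks and left-out arrays.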

Additional observations from a re-analysis of the deposited data

Results flagged for a closer look

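The effect of the hairpin differed between lines for most genes of the list, by limma's test of the difference itself (adjusted p under 0.05 over all genes). Between H1693 and H1993 it differed for 26 of the 38 genes, higher (more positive) in H1693 for 25 and lower for 1 (9.48% and 12.6% of all genes). Values are the effect in H1693 minus that in H1993 (log2). The transcription factors were DDIT3 at 1.09, CEBPG at 0.87 and CEBPB at 0.52. Of the stress effectors and secreted or receptor genes, TRIB3 at 1.88, DDIT4 at 1.84, STC2 at 1.17, CHAC1 at 0.93 and VLDLR at 0.80 passed. Of the enzymes of amino acid, serine and one-carbon metabolism, PCK2 at 1.45, SHMT2 at 1.10, ASNS at 0.88, CTH at 0.86, PSAT1 at 0.76, PYCR1 at 0.75, MTHFD2 at 0.37 and ALDH18A1 at -0.81 passed. Of the transporters, SLC7A11 at 1.24, SLC6A9 at 1.13, SLC7A1 at 0.91, SLC7A5 at 0.87, SLC3A2 at 0.67 and SLC1A4 at 0.50 passed. Of the tRNA genes, WARS1 at 1.55, SARS1 at 0.77, AARS1 at 0.67 and CARS1 at 0.62 passed.

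Between H1693 and H1650, 29 genes differed, 28 higher in H1693 and 1 lower (16.1% and 30.3% of all genes), given as H1693 minus H1650. In H1650 the gap between 3' and 5' probe sets of GAPDH went from 2.68 to 6.82 with the hairpin, and MARK2 did not pass as lower. Among the transcription factors, the differences were DDIT3 at 1.85, ATF4 at 0.62 and CEBPG at 0.54. Among the stress effectors and secreted or receptor genes, the differences were STC2 at 2.45, DDIT4 at 2.34, TRIB3 at 2.25, CHAC1 at 1.03 and SESN2 at 0.77. Among the enzymes of amino acid, serine and one-carbon metabolism, the differences were SHMT2 at 2.42, PCK2 at 1.30, PYCR1 at 1.18, PHGDH at 0.90, ASNS at 0.56, PSPH at 0.53 and ALDH18A1 at -0.65. Among the transporters, the differences were SLC1A5 at 3.09, SLC7A5 at 2.64, SLC3A2 at 1.91, SLC7A1 at 1.83, SLC6A9 at 1.74, SLC7A11 at 0.87, SLC38A2 at 0.42 and SLC1A4 at 0.38. Among the tRNA genes, the differences were AARS1 at 1.70, WARS1 at 1.65, MARS1 at 1.14, SARS1 at 0.73, GARS1 at 0.34 and EPRS1 at 0.29. With the mean of all probe sets the CEBPG difference was 0.15 and did not pass. The part of RNA integrity in these differences was not tested. With 2 arrays in each group, no test for single stray arrays within a group was made.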

How the results depend on the processing

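The counts in H1693 kept their size: 30 to 33 genes were higher under every other setting with all H1693 arrays, and 28 to 29 with an array left out. Fewer fell with the mean of all probe sets (0 by limma and 1 at an unadjusted p under 0.05, against 1), and median centring gave a median of 0.57. Of all genes tested, 2502 with the replicate block to 3028 without the H1650 arrays were higher in H1693 under the settings with all H1693 arrays. The number of genes tested ran from 14405 to 18132 with the filter. In H1993 the median was -0.11 with the mean of all probe sets and with quantile normalisation, -0.13 with median centring, and from -0.12 to -0.01 with an array left out. In H1650 4 genes rose after quantile normalisation and 4 in a fit of that line alone, and 5 to 7 with an array left out; the median was -0.20 with the mean of all probe sets, -0.17 after quantile normalisation and from -0.16 to -0.04 with an array left out. For H1693 minus H1993, 2 genes were lower with the replicate block and 2 without the H1650 arrays; the median was 0.76 with median centring and from 0.64 to 0.75 with an array left out. For H1693 minus H1650, 2 were lower with the compared lines alone and 1 to 2 with an array left out, and the median was 0.84 with the mean of all probe sets and 0.83 after quantile normalisation. For the control levels the median was 0.40 with the mean of all probe sets, 0.37 with median centring and from 0.41 to 0.52 with an array left out.

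Signs turned in 9 cases among the changes followed across settings. These were all genes of the list in H1693, and in the other comparisons those called there or given array by array. Signs of the remaining genes were not counted. With the mean of all probe sets ALDH18A1 changed by -1.14 in H1650 and its H1693 minus H1650 difference was 0.88, and PCK2 was at -0.07 in H1650. Near 0, NUPR1 in H1693 was at 0.02 without knockdown replicate 2 (-0.27 to 0.02 with an array left out), PCK2 in H1993 at 0.09 and 0.02 without control replicate 2 and knockdown replicate 1, SLC7A11 in H1993 at 0.02 and 0.01 without control replicate 1 and knockdown replicate 2, and the control difference of SLC6A9 at 0.04 without H1993 control replicate 1. The cause was not tested.

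The replicate numbers were not taken as pairs, since the deviations of same-numbered arrays correlated across genes at 0.29 in H1993 but at -0.18 in H1693 and -0.11 in H1650. With the replicate block 30 genes rose in H1693, 5 in H1993 and 6 in H1650, beside 2502, 2756 and 5780 of all 16205 genes. CHAC1 and GARS1 in H1993 did not pass with it (limma adjusted p = 0.0688 and 0.0595). With numbers crossed in H1693 and H1650, chosen after seeing the data, 31 rose in H1693 and 9 in H1650, beside 2878 and 6254 of all 16205 genes. Lone arrays left by an omission were assumed to vary like the other groups.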

Other observations

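The letters TGATGNAA were also found in promoter windows of 11 genes from the other lists. Of these, JDP2, HERPUD1, ATF3, SLC38A1 and NARS1 rose in H1693, by 1.03, 0.82, 0.47, 0.36 and 0.26, and YARS2, a mitochondrial synthetase, fell by 0.23. FGF21, IARS1, TARS1, MTHFD1L and PPP1R15B did not pass there, with changes of -0.14, 0.16, 0.12, -0.11 and 0.19. Beyond the amino acid response list, 411 tested genes held the letters, and 87 of them (21.2%) rose in H1693, against 17.4% of the tested genes with a window and no such letters. In H1993 the shares were 17.5% and 19.6%, and in H1650, beside the GAPDH gap, 38.2% and 37.6%. These shares are descriptions and were not tested.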
